A study of Mus musculus with 20 samples.

Results

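Mature miRNAs of the miR-708, miR-28 and miR-151 hairpins were described in mouse liver. Every listed row bearing one of these hairpin names was taken, whatever its arm. The rule found 8 of the 1509 distinct names in the deposited files: mmu-miR-708-5p, mmu-miR-708-3p, miR-28a-5p, miR-28a-3p, miR-28b, miR-28c, miR-151-5p and miR-151-3p. No joined name held one of them. Of the 880 names listed in every file, 7 were members, and miR-28b stood only in the files of 5 mice. Small RNA had been sequenced from livers of C57BL/6 mice aged 6 weeks, 5 of genotype PiZ and 5 wild type (WT). PiZ mice are transgenic for human alpha-1 antitrypsin in its Z variant. Hepatocytes normally secrete this inhibitor of proteases, but the Z variant misfolds and stays in their endoplasmic reticulum. Apart from that genotype, strain, tissue and age were shared by both groups. Small RNA libraries do not measure the transgene mRNA, so the labels alone give the genotype, and the sources used here do not state the sex of the mice.

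A miRNA is a short RNA cut from a hairpin precursor, and either arm of the hairpin (5p or 3p) can be kept in the silencing complex. Its seed, the bases near the 5′ end, largely sets which mRNAs it pairs with. miR-708 is known as a miRNA of the unfolded protein response: the transcription factor CHOP, made when misfolded proteins build up in the endoplasmic reticulum, was described to induce it together with its host gene. miR-28 and miR-151 are long-standing relatives of miR-708 by sequence and are not known as targets of CHOP. In the GENCODE annotation of GRCm38 the miR-708 hairpin lies in an intron of Tenm4, which encodes a teneurin of the cell surface, on the same strand. The miR-28a hairpin lies in an intron of Lpp, which encodes a focal adhesion protein, and the miR-151 hairpin in an intron of Ptk2, the gene of focal adhesion kinase, each on the strand of its host. The miR-28c hairpin lies in an intron of Samd12 on the same strand.

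The mature sequences below show what the relatives share. They are RefSeq entries on build GRCm38.p6, written 5′ to 3′, and the capitals mark the seed (bases 2 to 8). RefSeq mature sequences were matched for 5 of the 8 members.
mmu-miR-708-5p: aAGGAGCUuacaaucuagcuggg
mmu-miR-28a-5p: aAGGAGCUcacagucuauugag
mmu-miR-28b: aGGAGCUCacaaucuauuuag
mmu-miR-708-3p: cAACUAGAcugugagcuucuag
mmu-miR-28a-3p: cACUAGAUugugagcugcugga

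The miR-708 and miR-28a arms lie on the plus strand: miR-708-5p at chr7:96249450-96249472, miR-708-3p at chr7:96249496-96249517, miR-28a-5p at chr16:24827868-24827889 and miR-28a-3p at chr16:24827908-24827929. The seed AGGAGCU was found at bases 2 to 8 of miR-708-5p and miR-28a-5p and of no other of the 1679 mature mouse names in the RefSeq table. Over 22 aligned bases these miRNAs were the same at 16. They differed by U9C, A13G, G18U, C19U, U20G and G21A, with the base of miR-708-5p first, the position counted from 1 at its 5′ end and the base of miR-28a-5p last. Every difference thus lay outside the seed. The miR-28b entry starts 1 base later along the same stretch, so its seed is GGAGCUC. With that shift it was the same as miR-28a-5p at 19 of 21 bases and differed by G13A and G20U, with positions counted along miR-28a-5p.

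The 3p arms did not share a seed at the same register. With miR-28a-3p set 1 base later, miR-708-3p was the same at 17 of 21 bases and differed by A2C, C9U, U18G and A21G, counted along miR-708-3p. Neither AACUAGA nor ACUAGAU was the seed of another mature name in the table. Each of these 3 pairs differed at 2 or more bases. All 150 deposited run values of the members were whole numbers, while each file held fractional values for other miRNAs.

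Depth differed between libraries. Each library had been run in 2 technical runs, which were summed, so the mouse is the replicate. WT mouse 1 had the fewest reads, 1307857, and PiZ mouse 4 the most, 10780801. PiZ mice 1 and 2 and WT mice 1 to 3 came in files listing 1399 miRNAs with 1307857 to 2507519 reads each, and the other 5 mice in files listing 990 miRNAs with 7043905 to 10780801 reads each. A single read was worth 0.0926 to 0.732 CPM (counts per 1000000 reads of TMM-scaled library size). WT mice 1 and 3 were the shallowest libraries and had been set apart in earlier results of these data, so differences without them are given beside those with them. The labelled tissue was checked with miR-122-5p, the defining miRNA of hepatocytes, which held 0.684% to 1.13% of reads in PiZ and 1.10% to 1.45% in WT liver. As CPM it stood at 6843 to 11428 in PiZ and 11489 to 14097 in WT liver. Its log2 difference was -0.45 (SE 0.18, edgeR adjusted p = 0.180) in the fit with the filter on genotype, described below. The other names of the hepatocyte list had positive differences in that fit, and none passed. For miR-122-3p the difference was 0.084 (SE 0.30, edgeR adjusted p = 0.918). For miR-802-5p it was 1.38 (SE 0.65, edgeR adjusted p = 0.225) and for miR-802-3p 0.83 (SE 0.49, edgeR adjusted p = 0.332). Hepatocyte miRNAs thus did not share a direction. The members together held 0.263% to 0.454% of reads in PiZ and 0.251% to 0.516% in WT liver.

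The miR-708 arms were the members whose levels did not overlap between the genotypes. mmu-miR-708-3p was read 34, 42, 178, 196 and 10 times in PiZ mice 1 to 5, and 0, 1, 1, 4 and 2 times in WT mice 1 to 5. As CPM, the PiZ values were 14.0, 17.0, 18.5, 18.2 and 1.14 and the WT values 0, 0.514, 0.540, 0.600 and 0.212. All 5 PiZ values lay above all 5 WT values, and PiZ mouse 5 stood far below the other PiZ mice. The 95% counting limits of WT mice 1 to 4 reached 2.70, 2.86, 3.01 and 1.54 CPM. These lie above the 1.14 CPM of PiZ mouse 5, so the counts do not place these mice below it. The PiZ mean was 13.8 ± 7.28 CPM and the WT mean 0.373 ± 0.257 CPM (SD, n = 5 per group).

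mmu-miR-708-5p, the arm with the seed of miR-28a-5p, followed the same order of groups. It was read 18, 15, 178, 159 and 4 times in PiZ mice 1 to 5, or 7.41, 6.06, 18.5, 14.7 and 0.454 CPM. In WT liver the only read was 1 in mouse 5 (0.106 CPM), and the other 4 mice had none. The groups did not overlap, but PiZ mouse 5 again lay nearest to WT. A single read was worth 0.732, 0.514 and 0.540 CPM in WT mice 1 to 3, above the 0.454 CPM of PiZ mouse 5. Their zeros had 95% counting limits of up to 2.70, 1.90 and 1.99 CPM, so they do not place these mice below PiZ mouse 5. The PiZ mean was 9.44 ± 7.19 CPM and the WT mean 0.0212 ± 0.0475 CPM (SD, n = 5 per group). Over PiZ mice 1 to 4 the mean was 16.9 ± 2.06 CPM for the 3p arm and 11.7 ± 5.94 CPM for the 5p arm (SD, n = 4), so the 4 mice lay closer together in the 3p arm. The wider 5p spread lay between the file sets. Mice 1 and 2, at 7.41 and 6.06 CPM, came in files listing 1399 miRNAs, and mice 3 and 4, at 18.5 and 14.7 CPM, in files listing 990. These are bulk livers, in which more cells of a type and more RNA per cell cannot be told apart.

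**Figure D1:**
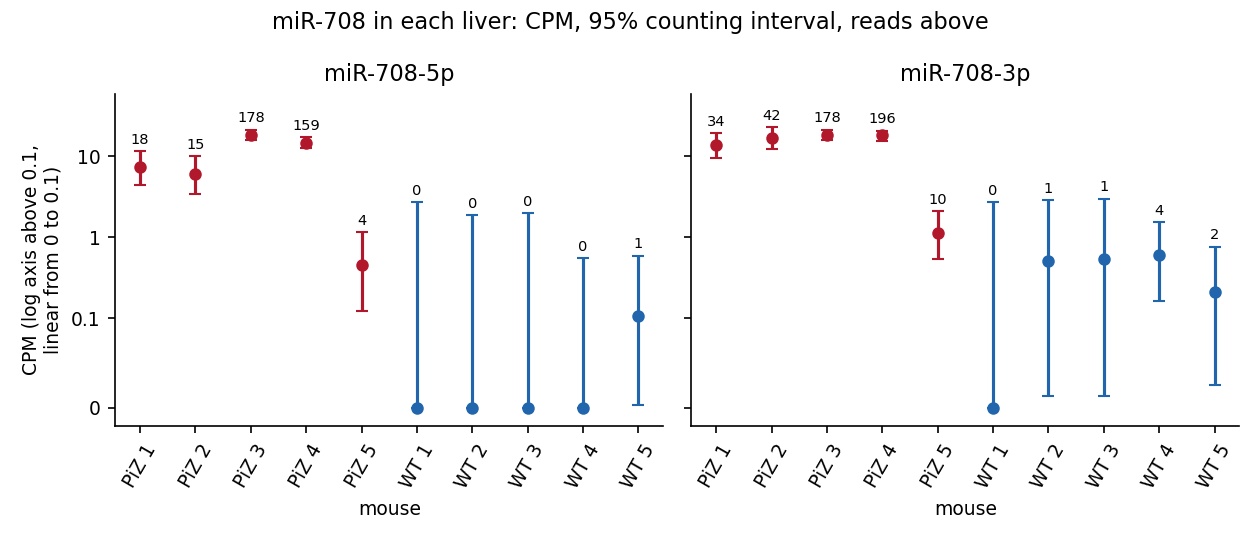
miR-708-5p (left) and miR-708-3p (right) in each of 5 PiZ and 5 WT livers, in CPM on an axis that is logarithmic above 0.1 and linear below; points are single mice, bars are 95% exact Poisson counting intervals, and the number above each point is its reads. PiZ mice 1 to 4 sit between 6.06 and 18.5 CPM in both arms, PiZ mouse 5 at 0.454 and 1.14 CPM, and no WT mouse above 0.600 CPM.

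An exact two-sided permutation test of the CPM over the 10 mice gave p = 0.00794 for miR-708-3p and p = 0.00794 for miR-708-5p, the smallest value that 252 splits of 5 against 5 can give. It was computed for 6 members. For miR-708-5p it takes the zeros of the shallow WT mice 1 to 3 as lying below PiZ mouse 5, which their depth cannot show. Of the 852 miRNAs with at least 1 read, 26 (3.05%) likewise had every PiZ mouse above every WT mouse. With so few WT reads, the size is best given as a ratio of read totals with a 95% counting interval, which covers counting error only. That ratio was 35.8 (18.0 to 83.5) for miR-708-3p, from 460 PiZ and 8 WT reads. It was 233 (41.6 to 9225) for miR-708-5p, from 374 PiZ reads and 1 WT read. Without WT mice 1 and 3 the ratios were 34.7 (16.7 to 86.9) and 198 (35.3 to 7828).

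PiZ mouse 5 lay closest to the WT mice. Set against all WT reads, its ratio was 3.02 (1.07 to 8.79) for miR-708-3p and 9.65 (0.955 to 475) for miR-708-5p. The interval of the 3p arm lay above 1 and that of the 5p arm included 1. Summed over both arms, miR-708 stood at 21.4, 23.0, 37.1, 32.9 and 1.59 CPM in PiZ mice 1 to 5 and at 0, 0.514, 0.540, 0.600 and 0.319 CPM in WT mice 1 to 5. The 95% counting interval of PiZ mouse 5 ran from 0.869 to 2.67 CPM. The intervals of WT mice 1 to 3, all of low depth, reached 2.70, 2.86 and 3.01 CPM. Those of the deeper WT mice 4 and 5 ended at 1.54 and 0.931 CPM, below the 1.59 CPM counted in PiZ mouse 5. Both still overlapped the interval of PiZ mouse 5, which began at 0.869 CPM.

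The test across all miRNAs (edgeR's quasi-likelihood F-test with genotype and file set, Benjamini-Hochberg adjustment, threshold 0.05) did not reach miR-708 as first laid out. Its filter on low counts, set by genotype, kept 300 miRNAs and left out both arms of miR-708, together with miR-28b and miR-28c. In that fit 13 miRNAs (4.33%) passed, 12 higher and 1 lower in PiZ. None of the 4 members tested, both arms of miR-28a and of miR-151, was among them, also not by DESeq2 or limma-voom, and none had an unadjusted p under 0.05. With the filter set on both model terms, an alternative chosen after seeing that omission, 336 miRNAs were kept, and 28 (8.33%) passed as higher in PiZ.

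In that alternative fit miR-708-3p was higher in PiZ by 4.99 on the log2 scale (SE 0.80, 95% interval 3.24 to 6.75, edgeR adjusted p = 0.00303). miR-708-5p also passed (edgeR adjusted p = 0.00466), and its fitted fold change is not given because it rests on 1 WT read. Both arms came into that fit through the PiZ reads, so their passing is no count in support. With no filter, 852 miRNAs were tested, 71 (8.33%) were higher in PiZ, and both arms were among them. With these 336 miRNAs held, the calls were lost for both arms with limma-voom (adjusted p = 0.106 for 3p and 0.116 for 5p), without WT mice 1 and 3 (0.0601 for both) and in the shorter-list files alone (0.283 for both). The 5p call was also lost without WT mouse 5, the one with the read (edgeR adjusted p = 0.0718). Without PiZ mouse 5 the edgeR adjusted p fell to 4.37e-06 for miR-708-3p and 2.15e-06 for miR-708-5p. That fit leaves out the PiZ mouse nearest to WT, so the smaller values are no further support.

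Within file sets the direction of miR-708-3p was the same: 5.08 (SE 0.71) on the log2 scale in the longer-list files and 4.94 (SE 1.52) in the shorter-list files. The interval in the latter was wide, 1.06 to 8.83, and PiZ mouse 5 was 1 of its 3 PiZ mice.

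miR-28a-5p, the abundant holder of the shared seed, did not pass. It stood at 188, 240, 323, 277 and 210 CPM in PiZ mice 1 to 5 and at 179, 174, 161, 226 and 223 CPM in WT mice 1 to 5. The groups overlapped, with PiZ mice 2, 3 and 4 above every WT mouse and PiZ mice 1 and 5 within the WT range. The PiZ mean was 247.5 ± 53.8 CPM and the WT mean 192.6 ± 29.9 CPM (SD, n = 5 per group). The difference was 0.29 on the log2 scale (SE 0.18, 95% interval -0.11 to 0.69, edgeR adjusted p = 0.355), and an exact two-sided permutation test gave p = 0.0794. The interval leaves room for no difference and for one of up to 0.69. In the alternative fit that gave the 4.99 of miR-708-3p, the interval of miR-28a-5p was -0.13 to 0.63, far under that value. Without WT mice 1 and 3 the edgeR difference was 0.19 (SE 0.18), without WT mouse 3 alone 0.067 (SE 0.21), without PiZ mouse 1 0.12 (SE 0.22) and without PiZ mouse 2 -0.011 (SE 0.20, adjusted p = 0.980).

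miR-28a-3p, the other arm of that hairpin, stood at 76.5, 43.7, 63.8, 71.5 and 75.5 CPM in PiZ mice 1 to 5 and at 96.6, 45.7, 77.8, 57.4 and 72.2 CPM in WT mice 1 to 5. The groups overlapped, with WT mice 1 and 3 above every PiZ mouse and PiZ mouse 2 the lowest of all 10 mice. The difference was -0.081 on the log2 scale (SE 0.26, 95% interval -0.66 to 0.50, edgeR adjusted p = 0.905), and without WT mice 1 and 3 it was 0.12 (SE 0.22).

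The miR-151 arms were the most abundant members and showed no difference that passed. miR-151-5p stood at 1433, 1482, 1615, 1800 and 2992 CPM in PiZ mice 1 to 5 and at 2279, 1505, 2231, 1452 and 1669 CPM in WT mice 1 to 5. PiZ mouse 5, lowest of the PiZ mice in miR-708, was the highest of all 10 mice in miR-151-5p. The PiZ mean was 1864 ± 646 CPM and the WT mean 1827 ± 399 CPM (SD, n = 5 per group), and the difference was -0.0032 on the log2 scale (SE 0.27, 95% interval -0.59 to 0.58, edgeR adjusted p = 0.993).

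miR-151-3p stood at 1426, 880, 1206, 1169 and 1759 CPM in PiZ mice 1 to 5 and at 1897, 905, 1778, 1002 and 1178 CPM in WT mice 1 to 5. WT mice 1 and 3 were the highest of all 10 mice in this arm. The PiZ mean was 1288 ± 327 CPM and the WT mean 1352 ± 456 CPM (SD, n = 5 per group), and the difference was -0.033 on the log2 scale (SE 0.28, 95% interval -0.66 to 0.59, edgeR adjusted p = 0.981). Without WT mice 1 and 3 the differences were 0.17 (SE 0.21) for miR-151-5p and 0.25 (SE 0.21) for miR-151-3p.

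Each miR-151 arm had a negative difference in the longer-list files and a positive one in the shorter-list files. In the longer-list files the log2 difference was -0.50 (SE 0.38) for the 5p arm and -0.45 (SE 0.46) for the 3p arm, and in the shorter-list files 0.39 (SE 0.30) and 0.27 (SE 0.24). The test of that change between file sets gave 0.91 (SE 0.45) for miR-151-5p and 0.74 (SE 0.53) for miR-151-3p, each with an edgeR adjusted p of 0.844. No miRNA of 300 (0%) passed that test in edgeR or DESeq2, and 13 had an unadjusted edgeR p under 0.05.

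**Figure D2:**
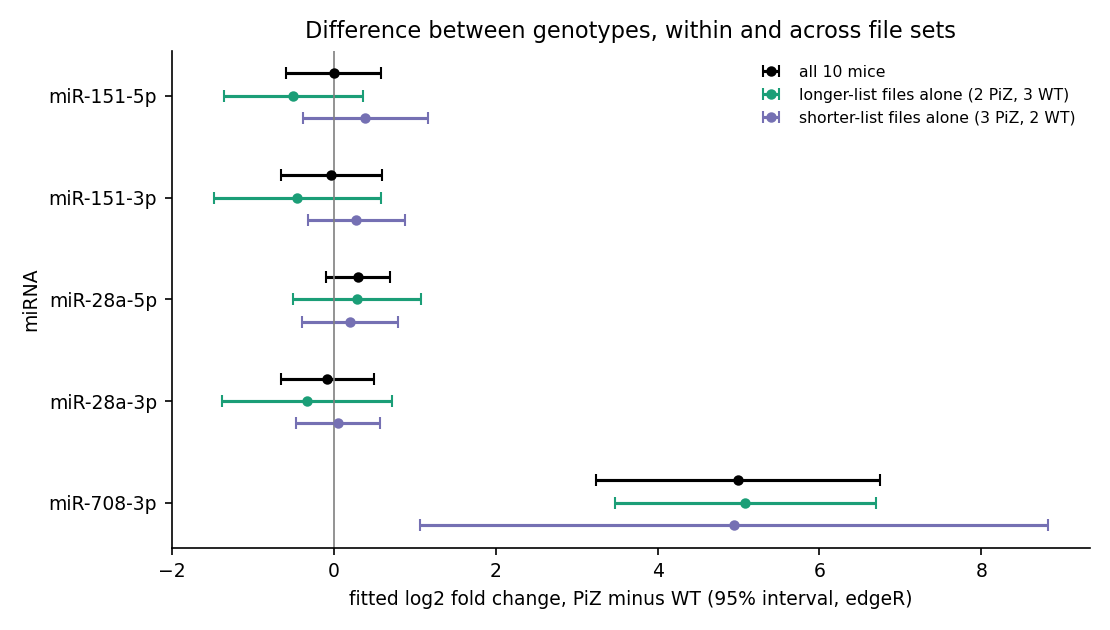
Fitted log2 fold change, PiZ minus WT, of 5 members in all 10 mice and in each file set alone; points are edgeR estimates and bars 95% intervals, with the values of miR-708-3p from the filter on the model terms. The 4 miR-28a and miR-151 arms lie across 0 in every set, and miR-708-3p lies at 4.94 to 5.08.

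The rare relatives gave too few reads to compare. miR-28c had 4 reads in 3 PiZ mice and 3 reads in 1 WT mouse, a ratio of 0.830 with a counting interval of 0.140 to 5.67. miR-28b had 5 reads over the 3 PiZ mice and 2 reads over the 2 WT mice whose files list it, a ratio of 1.38 with a counting interval of 0.225 to 14.5. A difference was not detectable at this depth.

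The order of mean levels was the same at the top in both genotypes: miR-151-5p, miR-151-3p, miR-28a-5p, then miR-28a-3p. In PiZ liver the miR-708 arms came next. These are read levels of RNAs of nearly equal length, and they also carry any preference of adapter ligation, which these files do not measure. By mean CPM among 880 miRNAs, miR-151-5p ranked 32 in PiZ and 33 in WT, and miR-28a-5p ranked 81 and 89. In PiZ liver miR-708-3p ranked 206 and miR-708-5p 226. The ranges of miR-151-5p and miR-151-3p overlapped within each genotype, as did those of the miR-708 arms. The ranges of miR-28a-5p and miR-28a-3p did not. In WT liver miR-708-3p, miR-708-5p, miR-28b and miR-28c, at 0 to 4 reads a mouse, could not be put in order.

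**Figure D3:**
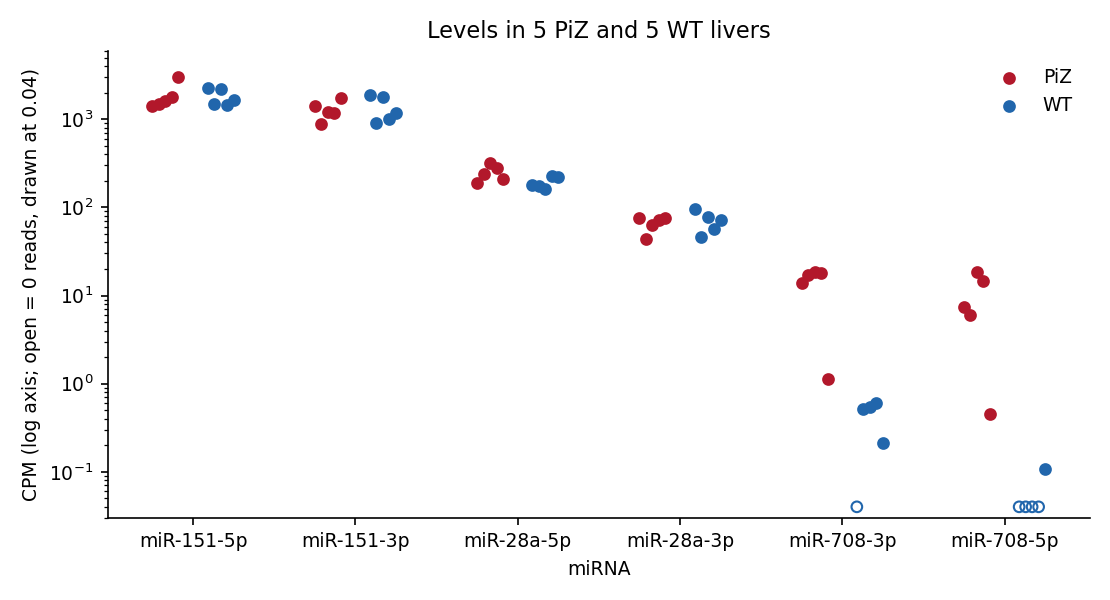
CPM on a log axis of the 6 members with enough reads, each point 1 mouse; open circles mark 0 reads and are drawn at 0.04. The miR-151 and miR-28a arms overlap between PiZ and WT, and both miR-708 arms do not.

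How much of the shared seed miR-708-5p held follows from the reads. Of the reads of miR-708-5p and miR-28a-5p together, miR-708-5p held 3.79%, 2.47%, 5.43%, 5.04% and 0.216% in PiZ mice 1 to 5. In WT mouse 5 it held 0.0477%. In WT mice 1 to 4 it was 0, which allows up to 1.22%, 0.888%, 1.01% and 0.199% when a count of 0 is taken to allow 3 reads. The 95% Wilson limits of these zeros were 1.54%, 1.12%, 1.27% and 0.254%. The mean share was 3.39 ± 2.12% for PiZ and 0.00953 ± 0.0213% for WT mice (SD, n = 5 per group).

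The 95% Wilson interval of PiZ mouse 5, 0.0840% to 0.554%, overlapped that of WT mouse 5, 0.00841% to 0.270%. For each miR-708-5p read there were 462 miR-28a-5p reads in PiZ mouse 5 and 17.4 to 39.5 in the other PiZ mice. miR-28a-5p thus held most of the shared-seed reads in every liver. The summed level of both was 195 to 341 CPM over the PiZ mice and 161 to 226 CPM over the WT mice, overlapping between the genotypes.

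**Figure D4:**
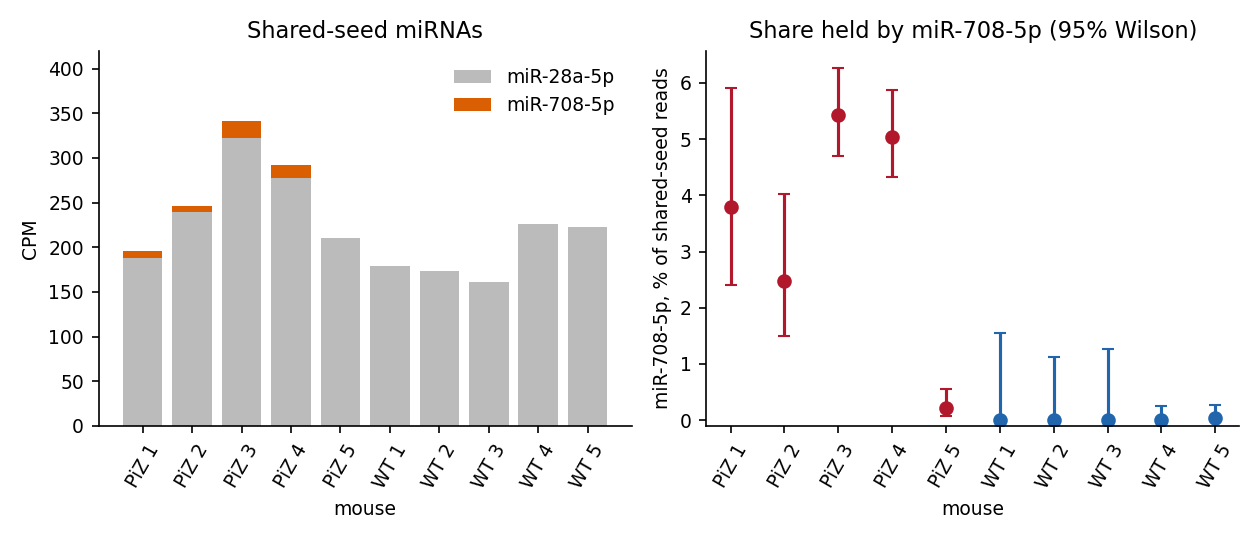
Left, CPM of miR-28a-5p (grey) and miR-708-5p (orange) stacked for each liver; right, the percentage of their reads held by miR-708-5p with 95% Wilson intervals. miR-708-5p holds 2.47% to 5.43% in PiZ mice 1 to 4 and at most 0.216% in the other 6 mice.

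Arm use differed between the hairpins. For miR-708 the 3p arm had more reads than the 5p arm in 4 of 5 PiZ mice and an equal number in PiZ mouse 3. The 5p arm held 34.6%, 26.3%, 50%, 44.8% and 28.6% of its reads in PiZ mice 1 to 5, a mean of 36.9 ± 10.3% (SD, n = 5). In WT liver only 9 reads of the hairpin were counted, 1 of them from the 5p arm, so no change in arm use was tested.

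For miR-28a and miR-151 the 5p arm was ahead in all 10 mice. The 5p arm of miR-28a held 78.4 ± 5.98% of reads in PiZ mice and 73.4 ± 6.79% in WT mice (SD, n = 5 per group). That of miR-151 held 58.7 ± 5.34% and 58.1 ± 3.11% (SD, n = 5 per group). On log2 ratios of 5p to 3p, limma gave a difference of 0.35 (SE 0.32, 95% interval -0.36 to 1.07, adjusted p = 0.613) for miR-28a and 0.012 (SE 0.23, 95% interval -0.50 to 0.53, adjusted p = 0.983) for miR-151. Exact two-sided permutation tests gave p = 0.230 and p = 0.817. The miR-28a difference was 0.062 (SE 0.31) without WT mice 1 and 3 and 0.079 (SE 0.32) without PiZ mouse 2. Over 64 hairpins tested, limma called 0 (0%), and the unadjusted p was under 0.05 for 2.

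**Figure D5:**
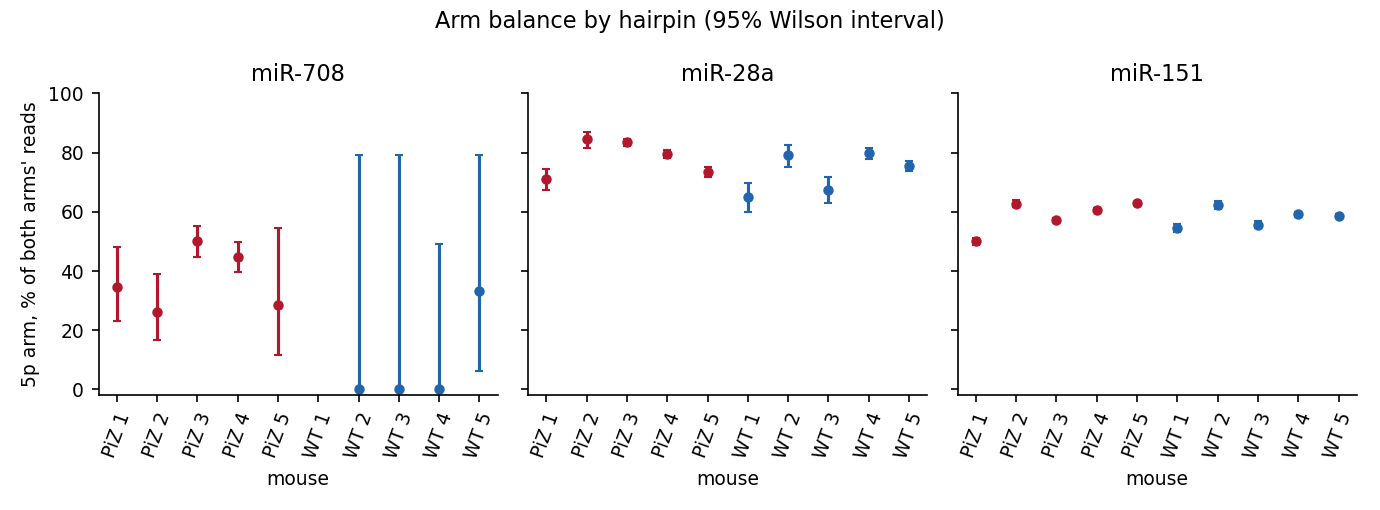
Percentage of a hairpin's reads that came from its 5p arm in each liver, with 95% Wilson intervals, for miR-708, miR-28a and miR-151; red points are PiZ and blue points WT mice. The 5p arm is above 50% in every mouse for miR-28a and miR-151 and at or below 50% for miR-708, where WT intervals rest on 9 reads and WT mouse 1, with none, has no point.

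The pattern of miR-708 over the mice was compared with that of other miRNAs, by the root mean square difference of log2 CPM, each centred on its mean over the 10 mice. The arms of miR-708 differed from each other by 0.55. Among 296 miRNAs outside the family kept by the filter on genotype, miR-6364 (0.79), miR-376b-3p (0.84), miR-379-5p (1.05), miR-300-3p (1.07) and miR-369-3p (1.08) came nearest to miR-708-3p, beside a median of 2.23 over all 296. Nearest to miR-708-5p were miR-6364 (0.65), miR-376b-3p (0.86), miR-410-3p (1.12), miR-381-3p (1.13) and miR-379-5p (1.20). All but miR-6364 belong to the imprinted miR-379/miR-410 cluster.

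PiZ mouse 5 lay below the other PiZ mice in these miRNAs, which follows from picking them by likeness to miR-708 over the same mice. miR-6364 stood at 52.7 to 86.1 CPM in PiZ mice 1 to 4, 14.3 in PiZ mouse 5 and 1.03 to 2.93 in WT mice. Among 330 candidates from the filter on the model terms, miR-449b was nearest, at 0.44 from miR-708-3p and 0.54 from miR-708-5p. miR-449b stood at 8.52 to 14.1 CPM in PiZ mice 1 to 4, 1.14 CPM in PiZ mouse 5 and 0 to 0.300 CPM in WT mice. Then came miR-217-5p (0.71), miR-216b-5p (0.77), miR-6364 and miR-376b-3p for the 3p arm. For the 5p arm they were miR-6364, miR-217-5p (0.69), miR-216b-5p (0.71) and miR-34c-3p (0.75).

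Summed levels of miRNAs known from cell types other than hepatocytes are given beside those of miR-708, and their part in its difference was not tested. The pancreas list (miR-216a-5p, miR-216b-5p, miR-217-5p and miR-375-3p, 4 of 4 found) summed to 24.3 to 84.1 CPM in PiZ mice 1 to 4, 11.6 CPM in PiZ mouse 5 and 5.65 to 17.6 CPM in WT mice. Of its members miR-217-5p was at 0 in PiZ mouse 5 and at most 0.150 CPM in WT mice. miR-216b-5p was at most 0.150 CPM in WT mice and 1.25 CPM in PiZ mouse 5, while miR-375-3p had means of 10.4 ± 4.27 CPM over the PiZ and 10.1 ± 3.84 CPM over the WT mice (SD, n = 5 per group). The neural list (9 of 9 found) summed to 80.0 to 182 CPM in PiZ mice 1 to 4, 53.0 CPM in PiZ mouse 5 and 49.2 to 75.7 CPM in WT mice. Its defining member miR-124-3p was at 0 in some mice of each group and reached 6.95 CPM over the PiZ and 0.300 CPM over the WT mice.

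The biliary-epithelial list (5 of 5 found) summed to 299 to 328 CPM in PiZ mice 1 to 4, 169 CPM in PiZ mouse 5 and 187 to 270 CPM in WT mice. The muscle list (4 of 6 found) summed to 70.5 CPM in PiZ mouse 4, 0 to 2.88 CPM in the other PiZ mice and 0 to 3.08 CPM in WT mice.

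The immune list (5 of 5 found) summed to 1715 to 2646 CPM in PiZ mice 1 to 4, 2221 CPM in PiZ mouse 5 and 602 to 1862 CPM in WT mice. Its member miR-223-3p, of myeloid cells, stood at 24.3 to 29.7 CPM over the PiZ and 9.52 to 21.3 CPM over the WT mice (log2 difference 0.81, SE 0.22, edgeR adjusted p = 0.0641). Such a lack of overlap, with PiZ higher, was found for 26 of 852 miRNAs (3.05%). The other immune names overlapped between the genotypes. Their log2 differences were 1.07 (SE 0.49) for miR-142-5p, 1.01 (SE 0.43) for miR-142-3p, 0.45 (SE 0.26) for miR-150-5p and -0.0094 (SE 0.31) for miR-155-5p. The erythroid list (4 of 4 found) summed to 319 to 1820 CPM in PiZ mice 1 to 4, 630 CPM in PiZ mouse 5 and 255 to 1105 CPM in WT mice. For the endothelial list (2 of 2 found) the sums were 26832 to 29963 CPM in PiZ mice 1 to 4. PiZ mouse 5 stood at 22180 CPM and WT mice at 8084 to 40645 CPM. For the mesenchymal list (5 of 5 found) the sums were 13858 to 15168 CPM in PiZ mice 1 to 4. PiZ mouse 5 stood at 9377 CPM and WT mice at 5908 to 16683 CPM. In both lists PiZ mouse 5 was below the other PiZ mice, and WT mice 1 and 3 were the lowest of all 10. The fit with the filter on genotype tested 2 of the 4 pancreas members, 4 of the 9 neural members and none of the muscle list. It tested every member of the biliary-epithelial, immune, erythroid, endothelial and mesenchymal lists. None of those tested passed, beside 4.33% of all miRNAs. With the filter on the model terms all 4 pancreas members were tested. miR-216b-5p (edgeR adjusted p = 0.00303) and miR-217-5p (edgeR adjusted p = 0.0297) passed as higher in PiZ, beside 8.33% of all 336. Both came into that fit through their PiZ reads, so their passing is no count in support. No member of the other cell type lists passed in it.

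Among the other miRNAs described in the unfolded protein response, none passed as higher in PiZ, and 1 passed as lower with the filter on the model terms. The list of 24 names includes both miR-708 arms, miRNAs described to act on XBP1, the miR-106b/25 cluster described as repressed under such stress, and miRNAs described as lost when IRE1 is active. With the filter on genotype 17 were tested and 0 passed in edgeR, beside 13 of all 300 miRNAs (4.33%). Their median log2 difference was -0.19 beside 0.047 over all 300. Since the list mixes miRNAs described as induced with others described as repressed or lost, it has no single direction to look for. With the filter on the model terms 19 were tested. The 2 that passed as higher were the miR-708 arms, beside 8.33% of all 336. The 1 that passed as lower was miR-30c-1-3p, beside 3 of all 336 (0.893%).

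miR-30c-1-3p comes from the less abundant arm of a miR-30c hairpin. Its PiZ mean was 39.0 ± 11.5 CPM and its WT mean 68.8 ± 17.3 CPM (SD, n = 5 per group). Its difference was -0.94 on the log2 scale (SE 0.26, edgeR adjusted p = 0.0417), and with the filter on genotype -0.91 (SE 0.25, edgeR adjusted p = 0.0646), so its call depends on the filter. miR-30c-2-3p, also in the list and more abundant, passed in neither fit. Its means were 226 ± 59.0 CPM in PiZ and 284 ± 76.9 CPM in WT mice (SD, n = 5 per group). Its difference was -0.37 (SE 0.26, edgeR adjusted p = 0.411), and with the filter on genotype -0.35 (SE 0.25, edgeR adjusted p = 0.449). The most abundant members of the list were miR-181a-5p, with a PiZ mean of 3440 ± 603 and a WT mean of 4063 ± 1412 CPM, and miR-25-3p, with 934 ± 198 and 1102 ± 192 CPM (SD, n = 5 per group). Their log2 differences were -0.24 (SE 0.25, edgeR adjusted p = 0.611) and -0.22 (SE 0.22, edgeR adjusted p = 0.589).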

How the data were processed

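The authors deposited 1 file per run, 20 in all, whose values are estimated counts of reads per mature miRNA, since some are fractional, made from their own read assignment, per the file headers. Livers were frozen, RNA was isolated (miRNeasy) and TruSeq small RNA libraries were prepared, per the labels' protocols. The submitters' processing notes name CASAVA. How reads were aligned, against which miRBase release, and how a read matching more than 1 miRNA was counted was not stated in any source used here. That last step sets the counts of near-identical miRNAs.

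The 2 runs of each library, were close to sampling noise (1.06 to 1.38 chi-square units per degree of freedom between runs) and were summed and rounded. The 880 miRNAs listed in every file, with at least 99.999% of each library's reads, were fitted in edgeR 4.0.16 (filterByExpr by genotype, TMM, quasi-likelihood F-test, terms for genotype and for file set). A standard error is the estimate over the root of its F value. Arm balance used limma 3.58.1 on the log2 of 5p over 3p reads, 0.5 added to each, where both arms averaged at least 20 reads. Exact tests and intervals used scipy 1.17.1. The fits were tested on simulated counts.

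The rule for names took all members, the 5 miRNAs nearest to each miR-708 arm (log2 CPM, prior count 2), the list members that passed with the 2 most abundant of the unfolded protein response list, and miR-122-5p. miR-216b-5p, miR-217-5p, miR-375-3p, miR-124-3p and miR-223-3p were also named as list members after their values were seen. So were miR-122-3p, both miR-802 arms, both miR-142 arms, miR-150-5p, miR-155-5p and miR-30c-2-3p. Lists for hepatocytes, pancreas, nerve, muscle, biliary epithelium, immune, endothelial, mesenchymal and erythroid cells were also summed. In the fit with the filter on genotype, which tested 31 of their 44 names, none passed in edgeR. With the filter on the model terms, miR-216b-5p and miR-217-5p of the pancreas list passed as higher in PiZ. The members and lists were chosen with earlier results of these data known. Nothing in the labels ties mice to litters, and p-values measure the spread between these mice. Alternatives were other scalings, filters, tests (DESeq2 1.42.0, limma-voom) and model terms, single runs, single file sets and mice left out.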

Additional observations from a re-analysis of the deposited data

Results flagged for a closer look

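Among 18 groups of 5 mice examined, 4 held a mouse far from the rest, by its gap to the nearest mouse divided by the range of the group in log2 CPM (limit 0.71). Chance flags about 1 in 20 groups, here 0.9, but that rate does not hold for groups of 0 to 3 reads a mouse, which were 3 of the 4. For miR-708-3p, PiZ mouse 5 was the lowest, with a gap of 0.892 of the range. For miR-708-5p, WT mouse 5 was the highest of its group with a gap of 1.0, being the only WT mouse with a read. For miR-28c, PiZ mouse 2 was the highest with a gap of 0.785, from 2 reads, and WT mouse 5 the highest with a gap of 1.0, from 3 reads where the other WT mice had 0.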

How the results depend on the processing

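No paired analysis was possible because the repeat numbers in the labels are technical runs of 1 library, and mouse numbers of PiZ and WT name different animals. The number of miRNAs passing between the genotypes, 13, was 8 with library totals, 83 with no filter, 37 with DESeq2, 3 with limma-voom, 2 in run 2 alone, 22 and 0 in the longer-list and shorter-list files, 2 without WT mice 1 and 3, 90 without these and PiZ mouse 5, 31 with the filter on the model terms, and 2 to 39 with each mouse left out (2 without PiZ mouse 3 or 4, 39 without PiZ mouse 5). The number of members higher in PiZ, 0, was 2 with no filter, 1 with at least 10 reads in 5 libraries, 2 in the longer-list files, 2 without WT mice 1 and 3 and PiZ mouse 5, 2 with the filter on the model terms, and 0 to 2 with each mouse left out. Every added member was an arm of miR-708, which the first filter had left out. The change between file sets went from 0 to 17 miRNAs only without WT mouse 2. The arm balance went from 0 hairpins to 2 with a pseudocount of 5 and to 0 to 1 with each mouse left out.

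Differences of miR-28a and miR-151 passed under none of 26 alternatives and turned sign in some, with the cause not tested. With each mouse left out, miR-28a-5p ranged from -0.011 (without PiZ mouse 2) to 0.34, miR-28a-3p from -0.40 to 0.025, miR-151-5p from -0.22 to 0.061, miR-151-3p from -0.27 to 0.065 and the miR-151 arm balance from -0.11 to 0.17. miR-28a-3p was also 0.051 in the shorter-list files, 0.12 without WT mice 1 and 3 and 0.13 without these and PiZ mouse 5. miR-151-5p was 0.030 with no file set term, 0.39 in the shorter-list files and 0.17 without WT mice 1 and 3. miR-151-3p was 0.27 in the shorter-list files, 0.25 without WT mice 1 and 3 and 0.15 without these and PiZ mouse 5. The miR-151 arm balance was -0.062 in the longer-list files and -0.071 without WT mice 1 and 3. Set against the fit of 336 miRNAs, which 2 other filters replaced and the rest kept, miR-708-3p ranged from 4.44 to 5.52 and passed in 21 of 24 alternatives. miR-708-5p, left out by the filter on 10 reads, passed in 19 of 23. These counts show dependence on the settings only, since both arms came into the fit of 336 miRNAs through their PiZ reads. The share of shared-seed reads held by miR-708-5p in PiZ was 2.88% to 4.18%. WT liver gave 9 miR-708 reads in all, which limits the precision of its level and of its arm use there.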
